A study of Homo sapiens with 6 samples.

Results

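The imprinted noncoding RNA cluster of human chromosome band 14q32 was read by 46 array features in 6 melanoma xenograft tumours. The 46 features were all those annotated with 1 gene symbol that begins with SNORD113 or SNORD114 or equals SNORD112, MEG3, MEG8, MEG9, DLK1 or RTL1. No filter on level was applied. They are 46 of 26419 features with 1 symbol and of 53617 features in all. SNORD114 has 31 of them and SNORD113 has 9, MEG3 has 2, and MEG8, MEG9, DLK1 and RTL1 have 1 each, while SNORD112 has 0. The members were selected on their knockdown minus control values in these same arrays, so those differences are given as a description and support nothing further.

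The tumours were grown from 1205Lu, an established human cell line from a metastatic melanoma, under the skin of NSG mice, an immunodeficient strain, for about 6 weeks. In 3 tumours the cells carried a non-target short hairpin RNA (control), and in 3 they carried one against Shp2 (knockdown), the tyrosine phosphatase encoded by PTPN11. All 6 tumours share the cell line, the host strain and a short hairpin RNA of one kind or the other. The labels do not say how many hairpins or clones were used, or whether each tumour came from its own mouse, and a p-value here covers no more than the scatter among these 6 samples. Levels are given as log2 GCRMA values, and a negative difference means that the knockdown mean was the lower one.

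The domain is controlled by parental imprinting. DLK1, a transmembrane Notch-like ligand, and RTL1, a protein derived from a retrotransposon, are made from the paternal copy. MEG3, MEG8, MEG9 and the small RNAs between them are made from the maternal copy and are all noncoding. SNORD113 and SNORD114 are families of box C/D small nucleolar RNAs (snoRNAs) that lie one after another in introns of the long host transcript of the MEG8 region. Most box C/D RNAs guide ribose methylation of ribosomal RNA, but these families have no established ribosomal target.

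The promoter of MEG3 is shown because MEG3 is the first long noncoding RNA of the cluster and both of its features differed between the groups without overlap. Both features were read within the range of background, and 7.42% of all features also did not overlap between the groups. The window comes from RefSeq (GRCh38.p14), lies at chr14:100825858-100826157 on the plus strand, and holds the 250 bases before and the 50 bases after 1 of 3 annotated start sites. Capitals mark TGACGTCA, the palindromic cAMP response element, which was searched on both strands and begins 50 bases before the start.
MEG3 promoter: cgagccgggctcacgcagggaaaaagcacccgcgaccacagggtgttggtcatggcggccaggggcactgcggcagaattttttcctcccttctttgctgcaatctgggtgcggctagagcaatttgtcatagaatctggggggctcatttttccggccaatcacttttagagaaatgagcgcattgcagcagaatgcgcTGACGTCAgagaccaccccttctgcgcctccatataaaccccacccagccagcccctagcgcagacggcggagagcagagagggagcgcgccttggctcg
The windows of the other MEG3 start sites hold the same element, and so do 649 of 35116 promoter windows of this length (1.85%). The match describes the letters and was not set against any binding data.

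The knockdown is visible in the arrays. PTPN11 had values of 8.47, 8.76 and 9.05 in the control tumours and 6.92, 6.34 and 6.88 in the knockdown tumours, and the groups did not overlap. The difference was -2.05 (SE 0.21), with limma's adjusted p = 0.091 over all 26419 features and an exact two-sided permutation p of 0.1, the smallest that 3 against 3 arrays can give. Melanoma markers were in part at the floor. Of 15 measured, 6 were brighter than 95% of the negative control features of the array on 3 or more arrays (CSPG4, S100B, AXL, BRAF, VIM and SOX10), while MITF and the pigment genes PMEL, MLANA, TYR, TYRP1 and DCT were below that bound, the control percentile, in all 6. The percentile ran from 5.12 to 5.90 in control tumours and from 5.09 to 5.43 in knockdown tumours. The median of the negative controls was 2.52, 2.24 and 2.25 in control tumours and 2.22, 2.10 and 2.02 in knockdown tumours, so background itself was lower in the knockdown arrays without overlap, and its part in the results on dim features was not tested.

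Across the 46 members, which were selected on these differences, 41 had a lower mean in the knockdown tumours and 5 a higher one. Lower means were found at 44.6% of all features, and at 31.3% of those above the control percentile in at least 3 arrays. None passed limma's adjusted threshold of 0.05, nor did any of the 26419 features (0%). At an unadjusted p under 0.05 there were 7 members, all with lower means in knockdown tumours, against 3.18% of all features in either direction and 1.6% with a lower mean. Without limma's variance moderation 1 member was under 0.05, against 3.24% of all features. With array weights 23 of 46 were, but so were 19.7% of all features. The groups did not overlap for 4 members (MEG3 at both features, SNORD114-7 and SNORD114-27), all lower in the knockdown tumours, against 7.42% of all features in either direction, 3.46% lower and 3.96% higher. The median difference over the members was -0.39, and over all features it was 0.02. A lower value in bulk RNA can mean fewer cells of a type or less RNA per cell, and these cannot be told apart.

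**Figure D1:**
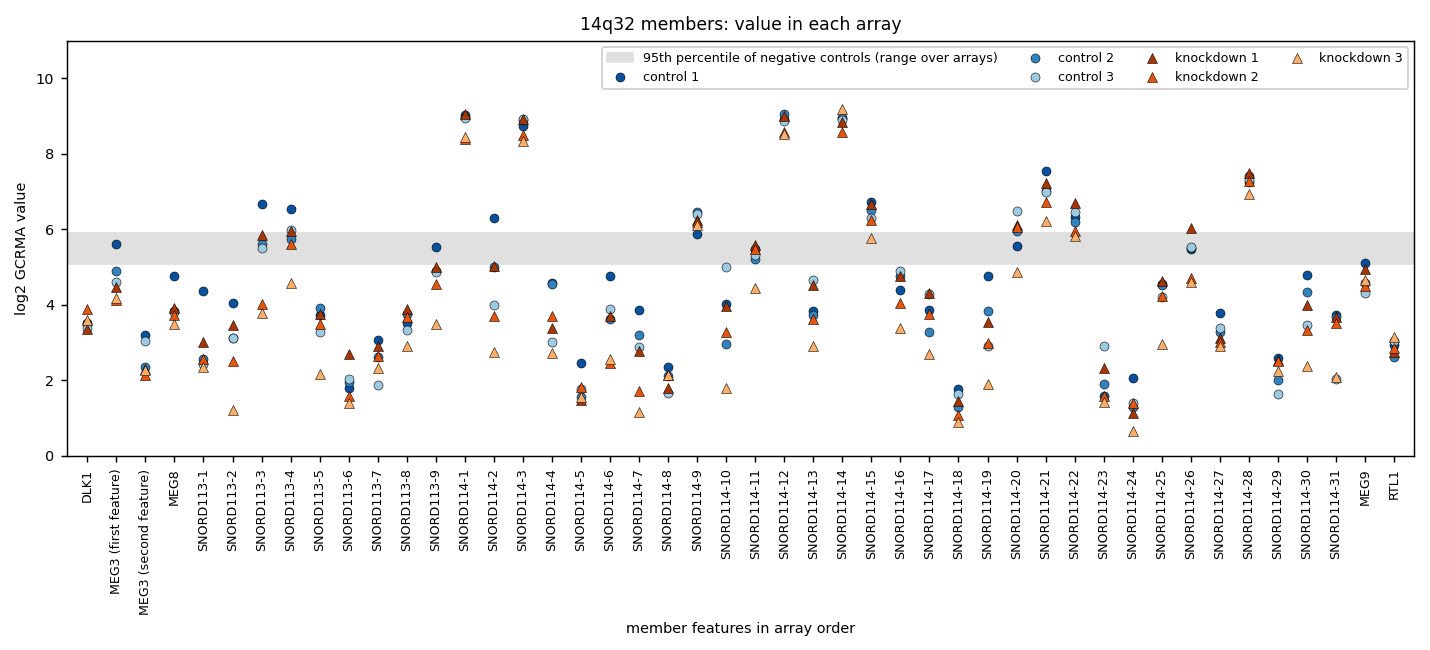
Log2 GCRMA value of each of the 46 members in each array, in the order of the features on the array; circles are control tumours, triangles knockdown tumours, and the grey band is the range over arrays of the 95th percentile of negative controls (5.09 to 5.90). Most members lie below the band, and the palest triangles (knockdown tumour 3) are often the lowest points.

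MEG3, a long noncoding RNA studied as a growth suppressor, was lower in each knockdown tumour than in any control tumour at both of its features. The first feature (16788488) had values of 5.60, 4.90 and 4.60 in control tumours and 4.48, 4.12 and 4.17 in knockdown tumours. The groups were separated by a small gap, between control tumour 3 and knockdown tumour 1. The means were 5.04 ± 0.52 and 4.26 ± 0.19 (SD, n = 3 each), and the difference was -0.78 (SE 0.25, 95% interval -1.34 to -0.22), or 58.3% of the control value. The second feature (16788520) had values of 3.21, 2.36 and 3.05 in control tumours and 2.30, 2.14 and 2.28 in knockdown tumours. Its control tumour 2 lay close to the knockdown tumours, and the difference was -0.63 (SE 0.22). Neither feature reached the 95th percentile of negative controls in any array, so both were read within the range of background. The first feature's difference was -0.45 with the contrast of positive and negative controls as a covariate and -0.49 without control tumour 1. The second feature's was -0.17 with array weights.

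MEG8, the next long noncoding RNA of the cluster, had values of 4.76, 3.85 and 3.81 in control tumours and 3.92, 3.73 and 3.50 in knockdown tumours. The groups overlapped, since knockdown tumour 1 lay above 2 of the control tumours. Its difference was -0.42 (SE 0.25), and without control tumour 1 it was -0.12. MEG9, the long noncoding RNA at the far end, had values of 5.10, 4.58 and 4.32 in control tumours and 4.95, 4.51 and 4.65 in knockdown tumours, a difference of 0.04 (SE 0.22) whose sign turned in 4 of 18 other settings. Both features were below the control percentile in all 6 arrays.

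The 2 protein-coding genes, which are expressed from the other parental copy, had mean differences near 0. DLK1 (GRCh37 chr14:101193164-101201539, plus strand) had values of 3.51, 3.51 and 3.39 in control tumours and 3.36, 3.89 and 3.60 in knockdown tumours. The groups overlapped and the difference was 0.15 (SE 0.17, 95% interval -0.23 to 0.53). RTL1 had values of 2.94, 2.61 and 3.06 in control tumours and 2.76, 2.87 and 3.14 in knockdown tumours, a difference of 0.05 (SE 0.18) that was -0.07 without control tumour 2 and -0.05 without knockdown tumour 3. DLK1's difference was 0.01 without knockdown tumour 2. Both genes were below the control percentile in all 6 arrays.

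**Figure D2:**
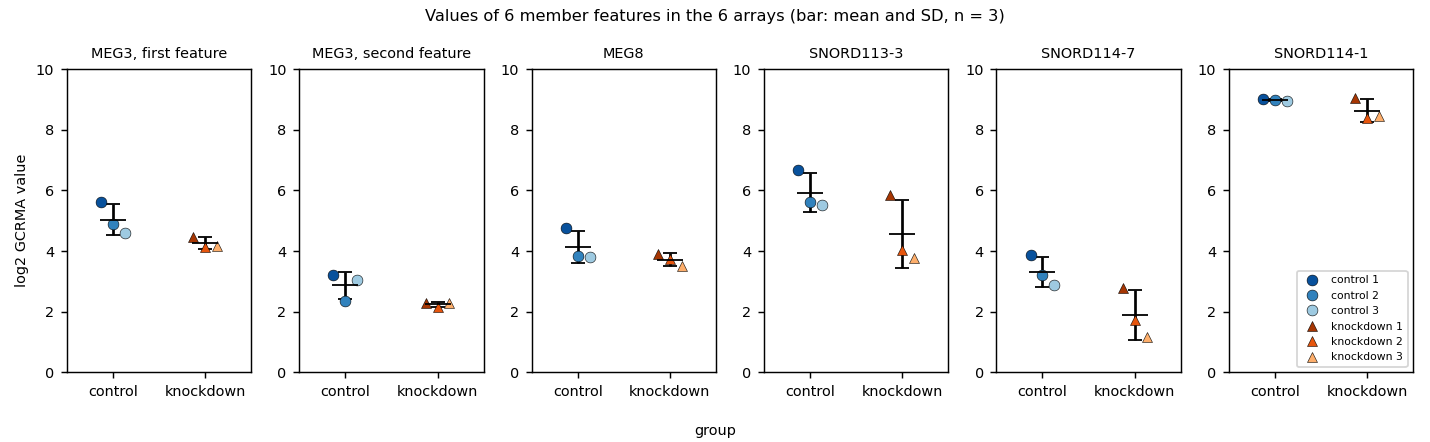
Log2 GCRMA values of 6 members in the 6 tumours, with the mean and SD of each group (n = 3); circles are control tumours and triangles knockdown tumours. The groups are apart at both MEG3 features and SNORD114-7 and overlap at MEG8, SNORD113-3 and SNORD114-1.

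SNORD113 has 9 features, of which 8 had a lower mean in the knockdown tumours, with a median difference of -0.49. Copies of SNORD113 and SNORD114 resemble each other, so a feature may also read other copies, and their values are uncertain as measures of single genes. SNORD113-3 (feature 16788576) had values of 6.66, 5.61 and 5.51 in control tumours and 5.85, 4.03 and 3.78 in knockdown tumours. Knockdown tumour 1 lay among the controls, while knockdown tumours 2 and 3 were below all of them. The means were 5.93 ± 0.64 and 4.55 ± 1.13 (SD, n = 3 each), the difference was -1.37 (SE 0.51, 95% interval -2.52 to -0.23), and the knockdown mean was 38.6% of the control value. The feature was above the negative control percentile in 4 of 6 arrays. Its difference was -0.72 with the control contrast as a covariate and -2.02 without knockdown tumour 1.

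SNORD113-4 was above the percentile in 5 arrays, with values of 6.55, 5.74 and 6.00 in control tumours and 5.96, 5.61 and 4.57 in knockdown tumours. Here only knockdown tumours 2 and 3 were below every control, and the difference was -0.71 (SE 0.34), or -0.31 without knockdown tumour 3. The other 7 SNORD113 features stayed below the percentile in all arrays. Among these, SNORD113-2 had values of 4.05, 3.12 and 3.12 in control tumours and 3.48, 2.52 and 1.21 in knockdown tumours, a difference of -1.03. SNORD113-9 had 5.53, 4.89 and 4.87 against 5.003, 4.57 and 3.49, a difference of -0.74. Both show the same order within the knockdown group, with tumour 1 highest and tumour 3 lowest. SNORD113-6, SNORD113-7 and SNORD113-8 had differences of -0.03, 0.11 and -0.03.

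SNORD114 has 31 features, and 30 had a lower mean in the knockdown tumours, with a median difference of -0.36. Of the 14 features of both snoRNA families above the control percentile in at least 3 arrays, 12 are SNORD114 copies. SNORD114-1 had values of 9.04, 8.99 and 8.94 in control tumours and 9.07, 8.39 and 8.46 in knockdown tumours. Its controls were tight, knockdown tumour 1 was the highest array and knockdown tumours 2 and 3 were below all controls. The difference was -0.35 (SE 0.20, 95% interval -0.79 to 0.09). SNORD114-3 had 8.74, 8.90 and 8.92 against 8.92, 8.51 and 8.35, a difference of -0.26 (SE 0.18). SNORD114-12 had 8.93, 9.07 and 8.88 against 9.02, 8.59 and 8.52, a difference of -0.25 (SE 0.17). In both, knockdown tumours 2 and 3 again lay below the controls and knockdown tumour 1 did not.

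SNORD114-14 went the other way in the third knockdown tumour. It had values of 8.96, 8.96 and 8.91 in control tumours and 8.86, 8.57 and 9.18 in knockdown tumours, so that knockdown tumour 3 was its highest array, and its difference was -0.07 (SE 0.18). SNORD114-21 had 7.55, 7.02 and 7.003 in control tumours and 7.24, 6.73 and 6.23 in knockdown tumours, a difference of -0.45 (SE 0.26). SNORD114-28 had 7.26, 7.42 and 7.32 against 7.49, 7.29 and 6.93, a difference of -0.10 (SE 0.17). SNORD114-26 had nearly equal controls of 5.49, 5.51 and 5.54, while its knockdown tumours were spread at 6.03, 4.71 and 4.61, a difference of -0.40 (SE 0.33). Without knockdown tumour 1 the differences of SNORD114-21 and SNORD114-26 were -0.71 and -0.85, and without knockdown tumour 3 they were -0.20 and -0.14. The other SNORD114 copies above the percentile were SNORD114-9, SNORD114-11, SNORD114-15, SNORD114-20 and SNORD114-22, with differences of -0.07, -0.17, -0.28, -0.32 and -0.16. Without knockdown tumour 3, SNORD114-15 had a difference of -0.05, and SNORD114-11, SNORD114-20, SNORD114-22 and SNORD114-28 had differences of 0.19, 0.08, 0.01 and 0.05, on the other side of 0.

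Several of the larger differences were at dim SNORD114 features. SNORD114-7 had values of 3.86, 3.21 and 2.88 in control tumours and 2.77, 1.71 and 1.17 in knockdown tumours. The groups did not overlap, although the gap between control tumour 3 and knockdown tumour 1 was small. The difference was -1.43 (SE 0.38, 95% interval -2.29 to -0.57), or 37.1% of the control value. SNORD114-27, the other snoRNA whose groups did not overlap, had 3.79, 3.28 and 3.38 in control tumours and 3.12, 3.01 and 2.92 in knockdown tumours, a difference of -0.47 (SE 0.17). Both were below the control percentile in all arrays. SNORD114-6 had 4.78, 3.63 and 3.89 against 3.72, 2.47 and 2.56, a difference of -1.18 (SE 0.37), and SNORD114-30 had 4.79, 4.34 and 3.46 against 3.997, 3.33 and 2.38, a difference of -0.96 (SE 0.42). SNORD114-2, above the percentile in control tumour 1 alone, had 6.31, 5.01 and 4.01 against 5.04, 3.70 and 2.75, a difference of -1.28 (SE 0.63). Its 2 groups each covered a wide range and overlapped. SNORD114-29 was the one SNORD114 copy with a higher mean in the knockdown tumours, by 0.35, and was also dim.

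The differences along the array followed no visible gradient. The 40 snoRNA features stand in the same order on the array as their genes in the reference gene table. The median difference was -0.49 over SNORD113, -0.56 over SNORD114-1 to SNORD114-10, -0.30 over SNORD114-11 to SNORD114-20 and -0.40 over SNORD114-21 to SNORD114-31. Lower means made up 8 of 9, 10 of 10, 10 of 10 and 10 of 11 of these runs. The runs share all 6 arrays and were not tested against each other. By level, the median difference was -0.27 over the 14 features above the control percentile in at least 3 arrays and -0.48 over the 25 that reached it in none.

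**Figure D3:**
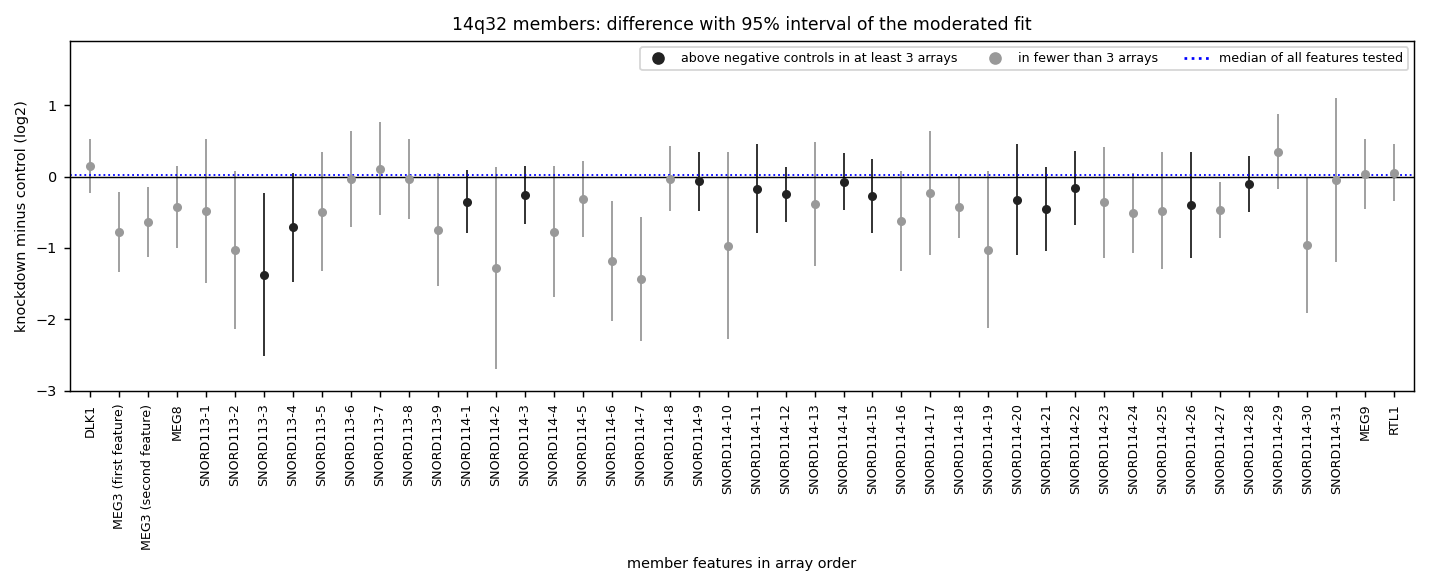
Knockdown minus control difference (log2) of each member in array order with the 95% interval of the limma fit; black points were above the negative control percentile in at least 3 arrays, grey points in fewer, and the dotted line is the median of all features (0.02). Points lie below 0 along the whole run from SNORD113-1 to SNORD114-31 apart from SNORD113-7 and SNORD114-29.

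The knockdown tumours were not alike. The median value over the 40 SNORD113 and SNORD114 features was 4.56, 4.13 and 4.11 in control tumours and 4.16, 3.70 and 2.83 in knockdown tumours. Knockdown tumour 1 thus stood within the range of the controls, and knockdown tumour 3 stood far below them. Knockdown tumour 1 was below all controls at 5 of 40 features, against 21.6% of all features. For knockdown tumour 2 this was 21 of 40, against 19.5% of all features, and for knockdown tumour 3 it was 34 of 40, against 18.9%. Knockdown tumour 3 was the lowest of the 6 arrays at 31 of 40 features (77.5%), as it was for 12.4% of all features. Control tumour 1 was the highest at 21 of 40 (52.5%), as it was for 19.6% of all features. That held mostly at dim features, with 16 of the 25 that never reached the control percentile. At the 14 above it in at least 3 arrays, control tumour 1 was highest at 4 and knockdown tumour 1 at 6. Control tumour 1 also had the smallest contrast of positive and negative controls, 3.64 against 4.11 to 4.47 in the other arrays. The 107 SNORD features outside SNORD113 to SNORD116 shared part of the order of arrays seen over the 40 features. Knockdown tumours 1, 2 and 3 were below all controls at 11, 37 and 42 of them, and control tumour 1 was the highest at 37.4%. At the 28 SNORD116 features the counts below all controls were 1, 12 and 3.

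Array by array, the median difference of knockdown tumour 1 from control tumours 1, 2 and 3 was -0.05, 0.11 and 0.15 over the 40 features. For knockdown tumour 2 the medians were -0.44, -0.28 and -0.30, and for knockdown tumour 3 they were -0.97, -0.78 and -0.76. Differences inside a group reached a like size. Knockdown tumour 3 differed from knockdown tumour 1 by a median of -1.07 and from knockdown tumour 2 by -0.49, and control tumour 3 differed from control tumour 1 by -0.41. The 14 features above the control percentile had medians of 6.69, 6.48 and 6.47 in control tumours and 6.70, 6.23 and 5.97 in knockdown tumours, the same order of the knockdown tumours.

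Leaving out an array moved these values. Without knockdown tumour 3, the median difference over the 40 features was -0.19 and 28 of 40 had a lower mean. Then 5 of 46 members did not overlap between groups, all lower, while 14.7% of all features did not overlap and 7.2% were lower. Without knockdown tumour 1, the median was -0.58 and 24 of 46 members did not overlap between groups, 23 of them lower, while 20.3% of all features did not overlap and 7.87% were lower. Without both arrays numbered 1, the median was -0.54 and 29 members did not overlap, 26 of them lower, against 31.9% of all features in either direction and 13.6% lower. Without control tumour 1, 2 or 3 in turn, 7, 8 and 7 members did not overlap, against 16.5%, 14% and 22.1% of all features, and without knockdown tumour 2 it was 6 members, against 14.2%. With the control contrast as a covariate the median was -0.23 and 33 of 40 had lower values.

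Other snoRNA families were read from the same arrays. SNORD115 and SNORD116, which lie in the imprinted Prader-Willi region of chromosome 15, had median differences of -0.05 over 43 features and -0.11 over 28. SNORD115 stayed below the control percentile throughout, with array medians of 1.05 to 1.18 that lie under the median of the negative controls, so it shows only the floor. In contrast, 13 SNORD116 features were above the percentile. SNORD116 followed another order of arrays, with control tumour 3 highest at 19 features, knockdown tumour 2 lowest at 12 and knockdown tumour 3 lowest at 3. The 107 other SNORD features, most of which guide ribosomal or spliceosomal RNA methylation, had a median difference of -0.07, with lower means at 68. Their medians were 6.85, 6.68 and 6.59 in control tumours and 6.81, 6.24 and 6.34 in knockdown tumours, so knockdown tumour 1 stood above knockdown tumours 2 and 3 here too. Knockdown tumour 3 was the lowest array at 27 of them (25.2%). The families were chosen with these values known, and the difference between them was not tested.

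**Figure D4:**
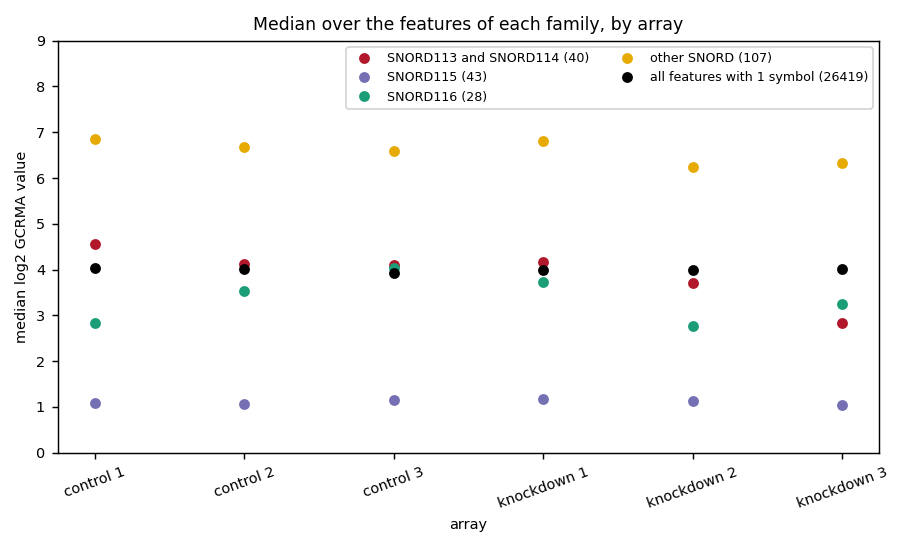
Median log2 GCRMA value per array over SNORD113 and SNORD114, SNORD115, SNORD116, all other SNORD features and all features with 1 symbol (number of features in brackets). The SNORD113 and SNORD114 median is 4.16 in knockdown tumour 1 and 2.83 in knockdown tumour 3, while the median of all features stays near 4 in all 6 arrays.

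Between MEG3 and MEG9 the array also holds 12 snoRNA features that carry no gene symbol, a group picked out after its values were seen. Of these, 9 had lower means in the knockdown tumours, with a median difference of -0.26, and knockdown tumour 3 was the lowest array at 9. The one above the control percentile in at least 3 arrays lies at GRCh37 chr14:101445339-101445427 on the plus strand. It had values of 7.56, 6.61 and 6.07 in control tumours and 6.49, 5.46 and 4.03 in knockdown tumours, a difference of -1.42. Knockdown tumour 1 lay among the controls and knockdown tumours 2 and 3 were below them, as at SNORD113-3. The one of the 12 without overlap, at chr14:101422577-101422649, was above the percentile in 2 arrays. It had 5.63, 5.32 and 5.34 against 5.31, 5.28 and 3.56. Knockdown tumours 1 and 2 thus lay just under the controls and knockdown tumour 3 far under them. Over all features, 7.42% did not overlap in either direction and 3.46% were lower.

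The microRNA genes of the domain lie around the snoRNAs and are processed from maternal transcripts. Of 52 measured, 31 had lower and 21 higher means, the median difference was -0.06 and 0 passed the adjusted threshold by limma. The control percentile was not reached in any array by 47 of the 52, so this median mostly shows the floor. The groups did not overlap for 5, 4 of them lower, against 7.42% of all features in either direction and 3.46% lower. All 5 were below the control percentile in every array. The array reads precursors or genes under these symbols, and 2 of them, MIR412 and MIR1185-2, exceeded the control percentile in at least 3 arrays. Their differences were -0.26 and -0.87, with overlap between groups at both. By smallest p the list was led by MIR487A, with a difference of 0.54, and MIR433, with -0.42, both dim in every array. A pair with near-identical hairpins, MIR1185-1 and MIR1185-2, was singled out after its values were seen. MIR1185-2 had values of 9.13, 7.86 and 5.64 in control tumours and 9.08, 5.35 and 5.59 in knockdown tumours, and MIR1185-1 had 6.02, 4.99 and 3.55 against 6.20, 3.24 and 3.68. At both, control tumour 1 and knockdown tumour 1 were the highest arrays, and the spread inside each group exceeded the difference between groups.
Their RefSeq hairpins (GRCh38.p14, chromosome 14) are printed because the 2 features move alike across the arrays and the hairpins share nearly all their bases. Capitals mark the positions that differ.
MIR1185-1 hairpin: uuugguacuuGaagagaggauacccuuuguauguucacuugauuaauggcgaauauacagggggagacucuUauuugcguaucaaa
MIR1185-2 hairpin: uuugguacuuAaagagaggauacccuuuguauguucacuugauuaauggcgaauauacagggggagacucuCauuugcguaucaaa
The hairpins are 86 bases each, are identical at 97.7% of positions, and differ by G11A and U72C, counted from the 5′ end of MIR1185-1. The mature 5p sequence is the same from both, with the seed (bases 2 to 8) in capitals.
hsa-miR-1185-5p: aGAGGAUAcccuuuguauguu
A feature for either gene may therefore read both.

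The listed neighbouring genes of the band had no common direction. The list includes DIO3 and DIO3OS, with differences of 0.29 and -0.08, so it is not confined to genes outside the imprinted domain. Of 17 measured, 9 had higher and 8 lower means, with a median difference of 0.05 and 0 past the adjusted threshold by limma. The control percentile was not reached in any array by 12 of the 17. YY1, a zinc finger transcription factor, had values of 6.54, 6.66 and 6.31 in control tumours and 6.29, 6.18 and 6.06 in knockdown tumours, a difference of -0.32 (SE 0.16) with no overlap between groups. It was the only 1 of the 17 without overlap, against 7.42% of all features in either direction and 3.46% lower. WARS, the tryptophanyl-tRNA synthetase, had a difference of 0.37 (SE 0.19). The list of proteins that bind and assemble box C/D RNAs had 15 measured genes, 1 of which, DKC1, is the pseudouridine synthase of the other snoRNA class (H/ACA) and had a difference of 0.04. Of the remaining 14, 12 were above the control percentile in at least 3 arrays. Higher means in knockdown tumours were seen at 11 and lower means at 3, with a median difference of 0.18 and 0 past the adjusted threshold by limma. Most features at such levels went the same way. Of all 7414 features above the percentile in at least 3 arrays, 5096 had higher means, with a median difference of 0.08. NOLC1, a nucleolar chaperone of snoRNP particles, had a difference of 0.43 (SE 0.25), and RUVBL1, an assembly helicase, one of 0.24 (SE 0.16). FBL, the methyltransferase of these particles, had a difference of -0.03.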

How the data were processed

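Total RNA of 6 tumours was labelled with biotin by the standard Affymetrix procedure, per the labels' protocols. The deposited values were made by the authors with GCRMA, per the submitters' processing notes, and were read as log2 values because they run from 0.05 to 13.3. The sources used here do not give the log base, the array design or the software version. Groups were taken from each sample's label. All 26419 features with 1 symbol were compared with limma 3.58.1 in R 4.3.3 (lmFit and eBayes, no covariate, no low-value filter), two-sided, with Benjamini-Hochberg adjustment and a threshold of 0.05. Levels were set against the 95th percentile of 3575 negative control features per array. In simulated data for this comparison (26419 features, 50 changed per size), limma called 0% of log2 changes of 0.5, 70% of 1, 98% of 1.5 and 100% of 2, with 10 false calls. The simulation planted the changes of all these sizes together, in independent normal noise. So many true changes ease the adjusted threshold, so its rates do not carry over to the members. In the real fit PTPN11 was not called at -2.05 (limma's adjusted p = 0.091). The median SE was 0.18 over all features but 0.63 at SNORD114-2. Members and lists were chosen with earlier results of these data known. The rule for named genes took every feature of the long RNAs and protein genes, snoRNAs above the control percentile in at least 3 arrays, the largest non-overlapping differences, and SNORD113-3; SNORD113-2, SNORD113-6 to SNORD113-9, SNORD114-2, SNORD114-4, SNORD114-6, SNORD114-29, SNORD114-30, FBL, DKC1, the MIR1185 pair, MIR412 and the unnamed features were added after their values were seen. All 46 members matched chromosome 14 names in the RefSeq table. Alternatives covered filters, normalization, variance models, a block, a covariate and each array left out.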

Additional observations from a re-analysis of the deposited data

How the results depend on the processing

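The precision is limited by 3 arrays per group and, for 31 of 46 members, by signals within the range of negative controls in all arrays. No member passed the adjusted threshold in any setting run. The count of all features past it was 0 in the fit reported and 1 (PTPN11) with a filter at a log2 value of 4 (difference -2.05, limma's adjusted p = 0.034), with a filter at the control percentile (-2.05, 0.014), with array weights (-2.07, 0.001), with the replicate number as a block (-2.05, 0.034) and at a threshold of 0.1; over all alternatives PTPN11's difference ran from -2.30 to -1.86, and fewer features were adjusted for under both filters. Members without overlap numbered 1 of 20 under the filter at 4 (6.67% of all features kept) and 0 of 14 under the filter at the control percentile (5.35%), which drop dim members, 29 of 46 without both arrays numbered 1, and 5 to 24 with each array left out. The median over SNORD113 and SNORD114 ran from -0.58 to -0.19 with each array left out, and median centring and quantile normalization gave -0.39 and -0.42. PTPN11 ran from -2.19 to -1.86 with each array left out. The labels do not say whether the replicate numbers pair the tumours. Deviations from the group mean correlated at 0.36, -0.01 and 0.13 between same-numbered arrays, and the 0.36 of the arrays numbered 1 was the highest among all pairs. So few arrays cannot settle whether same-numbered tumours share a batch. With the replicate number as a block, 18 of 46 members had limma's unadjusted p under 0.05, as did 5.17% of all features. Without the block these were 7 and 3.18%. Of the 16 snoRNAs named by rule, 6 had a sign change in at least 1 of 19 settings. With array weights the first MEG3 feature, SNORD114-4, SNORD114-7 and SNORD114-30 had limma's adjusted p of 0.077, 0.077, 0.070 and 0.080, while the second MEG3 feature had 0.62. Causes of these shifts were not tested.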

Other observations

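Imprinted genes of other chromosomes did not show a common direction. Of 20 measured, 12 had lower and 8 higher means in knockdown tumours, with a median difference of -0.03, and limma put 0 past the adjusted threshold. CDKN1C, a maternally expressed cyclin-dependent kinase inhibitor, had values of 5.14, 4.69 and 4.80 in control tumours and 4.54, 4.41 and 4.52 in knockdown tumours, a difference of -0.39 (SE 0.16) with no overlap, but was below the control percentile in all arrays. GNAS, above it in 1 array, had 5.38, 5.12 and 5.25 against 4.68, 4.92 and 5.05, a difference of -0.37 (SE 0.16) with no overlap. PHLDA2, a maternally expressed growth regulator of the placenta above the percentile in all 6 arrays, had 8.23, 8.42 and 8.35 against 8.44, 8.83 and 8.59, a difference of 0.29 (SE 0.16) with no overlap. Over all features, 3.46% were lower and 3.96% higher without overlap. GNAS and PHLDA2 were added after their values were seen. H19, a maternally expressed long noncoding RNA, had 7.99, 8.64 and 9.25 against 8.25, 7.79 and 7.83, a difference of -0.68 (SE 0.29), and control tumour 1 lay below knockdown tumour 1. Regulators of imprints and DNA methylation numbered 18, with 11 higher and 7 lower means, a median difference of 0.05 and 0 past the threshold. DNMT3L and DNMT3B, a cofactor and an enzyme of new DNA methylation, had differences of 0.28 (SE 0.18) and 0.36 (SE 0.23), both dim.

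A long noncoding transcript without a symbol, at chr14:101426540-101429203 among the SNORD114 copies, had 5.84, 5.10 and 4.75 in control tumours and 5.14, 4.51 and 3.89 in knockdown tumours, a difference of -0.71. It was below the negative control percentile in every array, and knockdown tumour 3 was its lowest. Other features without a symbol between MEG3 and MEG9 carry the transcript names rian and meg9 and did not share this difference. The rian feature had 4.14, 5.04 and 3.96 in control tumours and 4.35, 4.39 and 4.56 in knockdown tumours, a difference of 0.05. The features named meg9 had differences of -0.19 and 0.18. All of these overlapped between groups and were below the percentile in every array.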
